A study of Homo sapiens with 4 samples.

Results

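The p53 target genes examined were MDM2, CDKN1A, FAS, BBC3, BAX, GDF15, TP53I3, SESN1 and ZMAT3. They were taken as a list of 9 genes, of 20501 genes that could be named on the array, and all probes whose annotated RefSeq transcript belongs to one of them were used, 16 of 50599 probes. The rule that finds these probes uses no measured value, although the genes were listed with earlier results of these data known. The labels name MCF-10A cells for every sample, an immortal but non-tumorigenic line of human mammary epithelial cells that is known to carry unmutated p53. The cells had been given one of a pair of hydrocarbon-stapled peptides at 10 µM, and 4 arrays were hybridized, with 1 array each for stapled-peptide at 24 h, nonspecific stapled-peptide at 24 h, stapled-peptide at 48 h and nonspecific stapled-peptide at 48 h. All 4 cultures were grown in the same supplemented medium, and no untreated culture was analysed here. The study set stERAP-5 against stERAP-2 to look for effects outside the intended target in normal cells, but the sample labels do not say which peptide is which and mark the treatment of the nonspecific stapled-peptide arrays as control. The labels' own names are used throughout, and each peptide difference is the log2 signal with nonspecific stapled-peptide minus that with stapled-peptide.

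The p53 protein is a transcription factor that is kept scarce in unstressed cells because MDM2, itself the product of a p53 target gene, marks it for destruction. DNA damage and other stresses release p53 from this loop, and it then raises transcription of genes that stop the cell cycle, repair DNA, limit oxidation or start cell death. Among the genes examined, CDKN1A encodes p21, the inhibitor of cyclin-dependent kinases that carries much of the arrest. ZMAT3 encodes an RNA-binding protein, SESN1 a sestrin that restrains mTORC1, and GDF15 a secreted stress cytokine. FAS is the death receptor on the cell surface, BAX and BBC3 (PUMA) act at the outer mitochondrial membrane, and TP53I3 (PIG3) is a quinone oxidoreductase.

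p53 binds pairs of a 10-base consensus, the p53 decamer, which reads the same on both strands. To show what such letters look like beside members that behaved differently here, the 250 bases before a start site are given for MDM2 and FAS, from RefSeq on GRCh38.p14, with decamers in capitals. The MDM2 window, chr12:68808767-68809016 on the plus strand, precedes the downstream group of MDM2 starts.
MDM2: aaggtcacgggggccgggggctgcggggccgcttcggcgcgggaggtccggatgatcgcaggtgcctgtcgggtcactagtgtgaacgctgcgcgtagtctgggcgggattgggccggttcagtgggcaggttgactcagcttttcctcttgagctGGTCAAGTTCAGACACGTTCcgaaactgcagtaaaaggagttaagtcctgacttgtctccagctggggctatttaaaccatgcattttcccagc
The FAS window, chr10:88991181-88991430 on the plus strand, precedes the most downstream FAS start listed.
FAS: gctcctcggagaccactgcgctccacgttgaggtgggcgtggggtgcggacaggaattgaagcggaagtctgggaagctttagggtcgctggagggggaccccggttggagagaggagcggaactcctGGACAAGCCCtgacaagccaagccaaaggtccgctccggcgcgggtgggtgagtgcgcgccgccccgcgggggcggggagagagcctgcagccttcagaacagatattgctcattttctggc
The MDM2 window holds a pair of adjoining decamers that start 94 bases before the start site, each with at most 1 mismatch to the consensus. The FAS window holds 1 exact decamer that begins 122 bases before the start. An exact decamer was found in 2 of the 17 windows listed for the 9 genes, the other one lying 49 bases before a SESN1 start. It was found in 1950 of 34943 windows of all genes (5.58%). A pair with at most 1 mismatch in each decamer and at most 13 bases between them, a search added after the exact one, was found in 2 of the 17 windows, which overlap and both belong to MDM2, and in 545 of all windows (1.56%). These are matches of letters, and binding was not measured.

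The nonspecific stapled-peptide array at 48 h stood apart from the other arrays in all genes. Its correlation with them over log2 signals was between 0.80 and 0.81, whereas the 3 other arrays correlated with each other at 0.98 in every pair. On that array the signals of all 9 basal mammary markers, among them keratins KRT5 and KRT14, were lower by more than 2-fold than with stapled-peptide at 48 h, and their mean log2 signal was 5.08 against 12.1 on each of the other arrays. TP63, at −1.01, fell short of 2-fold without normalization (−0.84) and under the normexp background correction (−0.43), which left 8 of the 9 lower by that much. KRT6A was not well above background there. Of 11 genes known to be expressed in embryonic kidney lines, 10 gave a difference, 8 of these as a bound because the gene was dim on one of the arrays, and 8 of the 10 were higher. The mean log2 signal of the list was 9.89 against 4.07 to 4.12, where the lower values are close to background, since 7 or 8 of the 11 genes were not well above it on those arrays. Of 4 hormone-sensing luminal markers, 1 was higher and 0 were lower, and under normexp 0 were higher. Among all named genes 21.2% were higher and 19.8% lower by more than 2-fold. Of 5 general epithelial markers, 2 were lower, 0 higher and 3 within 2-fold, and without normalization 2 were lower and 2 higher. The 3 within 2-fold had log2 signals of only 4.50 to 6.46 over the 4 arrays. The lowest signals well above background were 3.57 to 3.94. The 2 lower ones, KRT8 and KRT18, were bright on the 3 other arrays. Counting bounds, 3 of 4 fibroblast, 2 of 4 endothelial and 2 of 4 leukocyte markers were lower, and 1 leukocyte marker was higher. On the 3 other arrays the fibroblast marker DCN was bright, at 14.8 to 15.0. The basal mammary and embryonic kidney lists of this array thus go against its MCF-10A label. Whether its RNA came from the same cells as the others cannot be told from these files, which bears on every difference taken from it. Every result below that uses this array moves with it and with these marker lists, and their part in it was not tested. In RNA of whole cultures, fewer cells of a type and less RNA per cell cannot be told apart. The 2 comparisons that do not use this array are the peptides at 24 h and stapled-peptide at 48 h against 24 h.

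With 1 array per condition, conditions could not be tested against each other, and precision is limited by there being 4 arrays in all. Spots give the error within an array alone, which leaves out the spread between cultures. A gene is therefore called higher or lower when its signal differed by more than 2-fold, and the counts are set beside the share of all named genes past the same fold in the same direction. All 16 probes were well above background on all 4 arrays, so that each difference of the 9 genes is measured on both sides. Each gene is represented by its brightest probe, averaged over the arrays, and signals are compared between arrays and not between probes.

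At 48 h, 5 of the 9 p53 target genes were lower with nonspecific stapled-peptide, namely FAS, CDKN1A, ZMAT3, TP53I3 and BAX, and none was higher. This is 55.6% of the genes, against 19.8% of all named genes lower by more than 2-fold and 21.2% higher. The median difference of the 9 genes was −1.07 on the log2 scale, and that of all named genes was 0.03. At 24 h none of the 9 genes was past 2-fold in either direction, against 1.04% of all named genes lower and 0.838% higher. BBC3 was the only one of the 9 with a positive difference at 48 h. At the level of probes, 9 of 16 were lower by more than 2-fold at 48 h, 0 were higher and 15 had a negative difference.

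**Figure D1:**
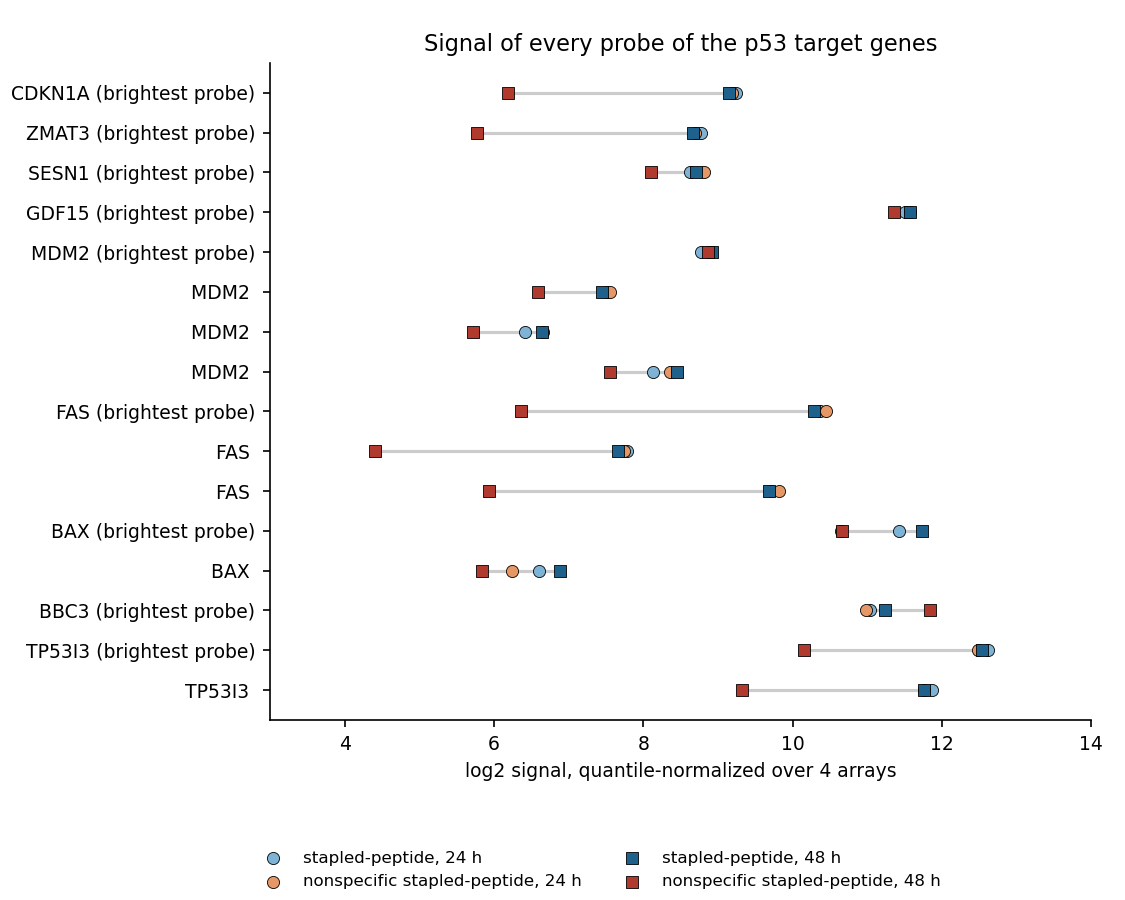
Log2 signal (horizontal axis, quantile-normalized over the 4 arrays) of the 16 probes of the 9 p53 target genes, 1 row per probe and 1 point per array, with no error bar since each condition has 1 array. The red square (nonspecific stapled-peptide, 48 h) lies far to the left for CDKN1A, ZMAT3, TP53I3 and every FAS probe, to the right for BBC3, and beside the other points for the brightest MDM2 probe.

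Among the genes of cell cycle arrest and stress control, CDKN1A had log2 signals of 9.24 with stapled-peptide and 9.18 with nonspecific stapled-peptide at 24 h, and of 9.15 and 6.19 at 48 h. The first 3 values lay within 0.09 of one another and the last was far below them, a difference between the peptides at 48 h of −2.96, or 7.76-fold. CDKN1A was measured by 1 probe. Of all named genes, 4.68% were at least as far lower at 48 h.

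ZMAT3 had log2 signals of 8.77 and 8.69 at 24 h and of 8.66 and 5.77 at 48 h, in the same order of peptides. Its difference at 48 h was −2.89, or 7.43-fold, close in size to that of CDKN1A. The ZMAT3 probe was spotted 10 times. Before normalization its spots at 48 h ranged from 8.38 to 8.58 with stapled-peptide and from 5.69 to 6.02 with nonspecific stapled-peptide, so the spot ranges did not overlap, and the mean difference was −2.61 ± 0.036 (SE between spots).

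SESN1 and GDF15 stayed within 2-fold. SESN1 had log2 signals of 8.63 and 8.82 at 24 h and of 8.70 and 8.10 at 48 h, a difference of −0.61 at 48 h. The signals of GDF15 were 11.51 and 11.58 at 24 h and 11.57 and 11.36 at 48 h, a difference of −0.21. In both genes the nonspecific stapled-peptide array at 48 h held the lowest of the 4 values, but 30.0% and 42.2% of all named genes, in the same order, were at least as far lower.

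MDM2, the feedback inhibitor of p53, was covered by 4 probes to 1 transcript, and they did not give the same answer. The brightest had log2 signals of 8.77 and 8.90 at 24 h and of 8.93 and 8.86 at 48 h, a difference of −0.06 at 48 h, which turned positive, 0.23, on signals that were not normalized. The 3 others differed by −0.86, −0.90 and −0.92. The probe spotted 10 times was among these 3, with log2 signals of 6.42 and 6.66 at 24 h and of 6.65 and 5.73 at 48 h, and its unnormalized spot ranges at 48 h, 6.26 to 6.55 and 5.67 to 6.04, did not overlap. None of the 4 probes was past 2-fold at 48 h, and their mean difference was −0.69. At 24 h the 4 probes differed by 0.03 to 0.24, all higher with nonspecific stapled-peptide, and the spot ranges of the probe spotted 10 times overlapped.

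Among the genes of cell death, FAS had the largest difference of the 9. Its brightest probe had log2 signals of 10.36 and 10.45 at 24 h and of 10.29 and 6.37 at 48 h, a difference of −3.92 at 48 h, or 15.2-fold, and 2.85% of all named genes were at least as far lower. Both other FAS probes went the same way. One had signals of 9.72, 9.82, 9.68 and 5.94 in the same order of arrays and a difference of −3.74. The other had signals of 7.79, 7.74, 7.66 and 4.40 and a difference of −3.26. Spots of the brightest probe, before normalization, lay between 6.49 and 6.57 with nonspecific stapled-peptide at 48 h and between 9.95 and 10.24 with stapled-peptide.

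BAX, the pore-forming member of the BCL2 family, differed from the rest in when it was low. Its brightest probe had log2 signals of 11.42 with stapled-peptide and 10.65 with nonspecific stapled-peptide at 24 h, and of 11.74 and 10.67 at 48 h. Both nonspecific stapled-peptide arrays were thus below both stapled-peptide arrays, by −0.77 at 24 h and −1.07 at 48 h, which is 1.71-fold and 2.11-fold. The 48 h difference was close to the 2-fold limit and was −0.88 on signals that were not normalized. The 24 h difference was −0.77 also when the arrays were normalized without the one that stands apart. At 24 h, 288 of 16228 named genes (1.77%) were at least as far lower as BAX. No other of the 9 genes differed by more than 0.19 in size at its brightest probe, and MDM2 reached 0.24 at another.

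The 10 spots of this BAX probe on each array gave the same order. Before normalization they ranged from 11.40 to 11.59 with stapled-peptide and from 10.44 to 10.78 with nonspecific stapled-peptide at 24 h, and from 11.50 to 11.68 and from 10.57 to 10.84 at 48 h. The ranges did not overlap at either time, and the differences were −0.81 ± 0.041 and −0.88 ± 0.036 (SE between spots). The second BAX probe, annotated to another transcript, had signals of 6.60, 6.24, 6.89 and 5.84. Its differences were −0.36 at 24 h and −1.04 at 48 h, in the same directions and smaller at 24 h. These spots measure 1 array per condition, so a difference between cultures given the same peptide was not measured.

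BBC3, which encodes the PUMA activator of BAX, had log2 signals of 11.03 and 10.99 at 24 h and of 11.24 and 11.84 at 48 h. Its highest signal was on the nonspecific stapled-peptide array at 48 h, where FAS, CDKN1A, ZMAT3 and TP53I3 had their lowest. The difference was 0.59, or 1.51-fold, and 31.6% of all named genes were at least as far higher.

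TP53I3, the oxidoreductase, had log2 signals of 12.61 and 12.48 at 24 h and of 12.54 and 10.15 at 48 h. Its difference at 48 h was −2.39, or 5.24-fold, and its second probe gave −2.44, with signals of 11.86, 11.76, 11.77 and 9.33. Both probes were thus lower by more than 2-fold, as were both BAX probes and all 3 FAS probes.

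The remaining comparisons set 48 h against 24 h with each peptide. With stapled-peptide none of the 9 genes was past 2-fold, against 1.13% of all named genes lower and 0.923% higher, and the differences ran from −0.11 for ZMAT3 to 0.32 for BAX. With nonspecific stapled-peptide, 4 of the 9 were lower and 0 higher, against 20.1% lower and 21.3% higher among all named genes. This comparison and that of the peptides at 48 h share the nonspecific stapled-peptide array at 48 h, so their values are given side by side and not as independent results. FAS was at −4.08 against 24 h and at −3.92 against stapled-peptide. CDKN1A was at −2.99 and −2.96, ZMAT3 at −2.92 and −2.89, and TP53I3 at −2.33 and −2.39. BBC3 was at 0.85 and 0.59. At its brightest probe BAX was at 0.01 and −1.07, since its signal there with nonspecific stapled-peptide was already low at 24 h. Its second probe was at −0.40 and −1.04.

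**Figure D2:**
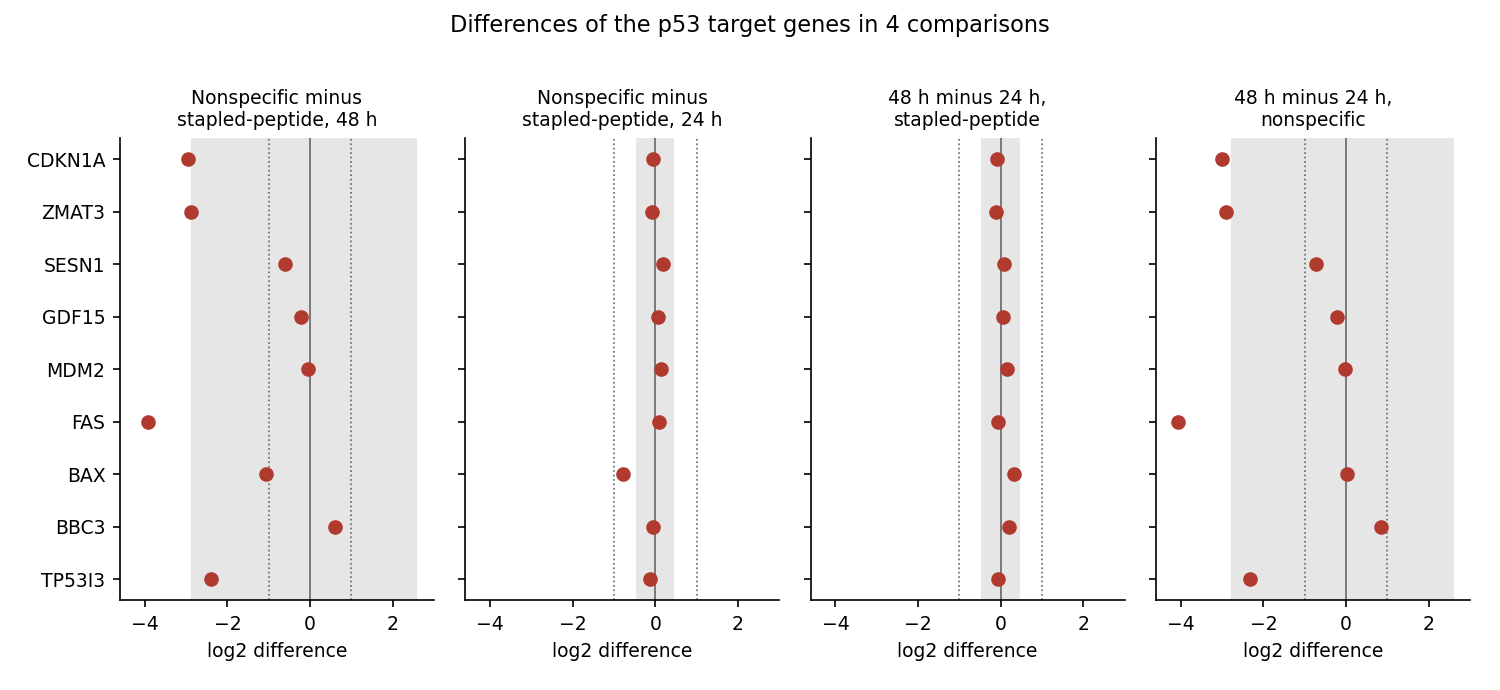
Log2 difference (horizontal axis) of the 9 genes, each at its brightest probe, in the 4 comparisons, with dotted lines at 2-fold and a grey band from the 5th to the 95th percentile of all named genes. The band is narrow in both comparisons that leave out the nonspecific stapled-peptide array at 48 h, and BAX at 24 h (−0.77) is the one point outside it there.

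Other established p53 targets were listed by function from textbook knowledge. Of 39 with a difference, 1 of them a bound, out of 42 listed, 21 were lower by more than 2-fold at 48 h, 5 were higher and 13 lay within 2-fold, with a median of −1.10. The shares of all named genes given above, 19.8% lower and 21.2% higher, apply here too. At 24 h none of the 39 was past 2-fold, and the median was 0.00.

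Of the cell cycle targets, 5 of 9 were lower and 1 was higher. SFN encodes 14-3-3 sigma, which holds cells before mitosis and is also a basal keratinocyte gene counted among the basal markers above. It had log2 signals of 13.55 and 13.64 at 24 h and of 13.59 and 5.83 at 48 h, a difference of −7.76. PLK2, a polo-like kinase, differed by −5.37, and CD82, a tetraspanin known as a metastasis suppressor, by −4.79. E2F7, a repressor of E2F targets, was higher by 2.49, with 1.09 at its second probe. CCNG1, cyclin G1, had the smallest difference, −0.10, and its sign turned on signals that were not normalized.

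Of the cell death targets, 7 of 15 were lower and 3 were higher. Lower were some TRAIL receptors, namely TNFRSF10D (−3.41), a decoy, and TNFRSF10A (−3.26, and −1.73 under normexp). The other TRAIL receptors listed were within 2-fold or dim on every array. Also lower were TP53INP1 (−2.70), AIFM2 (−2.59) and PHLDA3 (−2.32), which restrains AKT. PMAIP1, the BH3-only protein NOXA, was higher, with log2 signals of 8.40 and 8.35 at 24 h and of 8.45 and 12.02 at 48 h, a difference of 3.56. PMAIP1 and BBC3 are both BH3-only targets, and both had their highest signal on the same array, though BBC3 stayed within 2-fold. The BH3-only genes of the BCL2 family given below went in both directions at 48 h. BID had the smallest difference of this list, 0.38.

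Of the repair targets, a list that also holds FDXR and RPS27L, 4 of 6 were lower and 0 higher. Without normalization 2 of 6 were lower, and under normexp 3 of 6. POLH was among the 4, at −1.06 at its brightest probe. Its second probe, near background, went the other way, with a bound of 1.16. RRM2B, the p53-inducible subunit of ribonucleotide reductase, differed by −2.11 at its brightest probe and by −3.24 at the other, and DDB2, the damage sensor, had the smallest difference, −0.30. Of the targets in metabolism, redox balance, autophagy and other roles, among them NINJ1 and TRIM22, 5 of 9 were lower and 1 was higher. DRAM1, which links p53 to autophagy, had log2 signals of 10.73 and 10.70 at 24 h and of 10.72 and 4.14 at 48 h, a difference of −6.57. TRIM22 was not well above background on the nonspecific stapled-peptide array at 48 h and was at least 49.1-fold lower, with a difference of −5.62 that was −3.36 under normexp. SAT1, a polyamine acetyltransferase, differed by −2.60 and NINJ1 by −2.44. SESN2, the kin of SESN1, was higher, by 3.29, with signals of 8.16, 8.11, 8.02 and 11.31, while SESN1 was within 2-fold. GLS2 had the smallest difference, 0.02, whose sign depended on the background correction.

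The activity of p53 is set mainly on the protein, through its kin and regulators, and protein was not measured. Of 21 genes in the list of p53 kin and regulators, 8 were higher and 4 lower at 48 h, with a median of 0.42, and none was past 2-fold at 24 h. These are 38.1% and 19.0% of the list, against 21.2% and 19.8% of all named genes, and the counts were 6 and 3 under normexp. TRIM28, a corepressor that works with MDM2, had the smallest difference, 0.07, whose sign turned after scaling to the 75th percentile. TP73, a relative of p53, had signals of 4.63, 5.32, 5.66 and 7.75 and a difference of 2.09, which was 0.89 and within 2-fold under normexp, with 0.46 at its second probe. It was also the one gene of this list past 2-fold with stapled-peptide from 24 h to 48 h, at 1.03, but its second probe gave −0.84. No gene of the list was past 2-fold there after scaling to the 75th percentile, without normalization or under normexp. The TP73 signal of 4.63 was not far above the lowest one well above background on that array, 3.94. TP63, the relative that marks basal cells, differed by −1.01, at the 2-fold limit, with the lower values given above.

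MDM4, the partner of MDM2 in holding p53 back, differed by 1.22 at its brightest probe, but its 3 other probes gave 1.15, −0.05 and −0.35. CHEK2, a checkpoint kinase, was higher by 2.13 at its brightest probe and by 0.30 to 2.23 over its 6 probes. At 24 h a dimmer CHEK2 probe differed by −1.21 and the others by 0.02 to 0.06. PPP1R13L, an inhibitor of p53, was lower at 48 h, by −2.71. CDKN2A, whose ARF product blocks MDM2, lies in a region that MCF-10A cells are known to have lost. It had log2 signals of 8.77 and 8.64 at 24 h and of 8.68 and 14.26 at 48 h, a difference of 5.58. Despite that known loss, this probe was well above background on all 4 arrays, and what it detected was not tested. The second CDKN2A probe gave 7.40, from signals of 4.44, 5.05, 5.04 and 12.44.

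**Figure D3:**
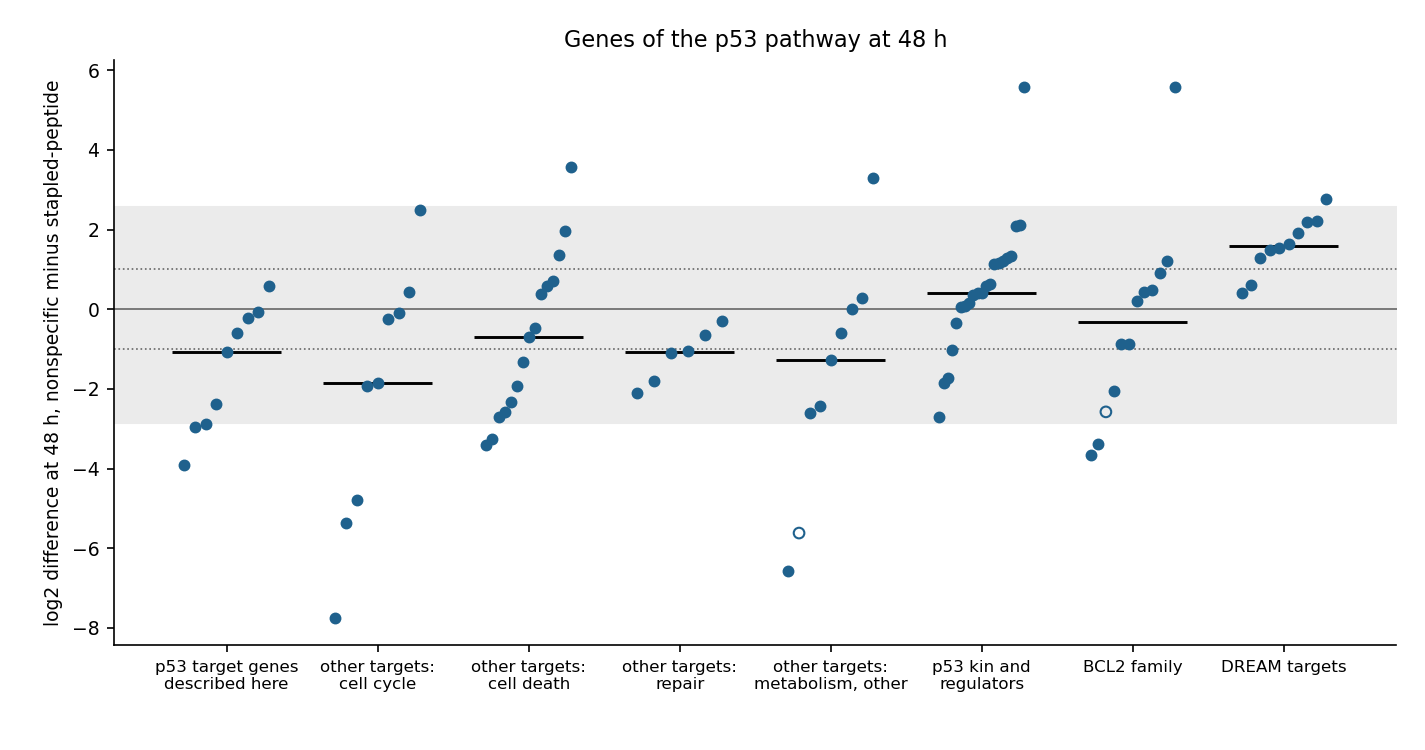
Log2 difference between the peptides at 48 h (vertical axis, nonspecific minus stapled-peptide) of each gene in the p53 lists, sorted within a list, with open circles for bounds, a black line at the median of a list, dotted lines at 2-fold and a grey band from the 5th to the 95th percentile of all named genes. Medians lie below 0 for the 9 genes (−1.07) and the other target lists, and above 0 for the DREAM targets (1.58).

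BAX and BBC3 act among the BCL2 family, whose members protect mitochondria or permeabilize them. Of 12 other members, 2 were higher and 4 lower at 48 h, with a median of −0.32. These are 16.7% and 33.3% of the list, against 21.2% and 19.8% of all named genes. The protective BCL2L1 (−3.65) and MCL1 (−2.05) were lower. So were BOK (−3.37), an effector related to BAX, and the BH3-only BIK, which was not well above background with nonspecific stapled-peptide at 48 h and was at least 5.96-fold lower, a difference that shrank to −0.83, within 2-fold, under normexp. HRK, another BH3-only gene, was higher by 5.59, with signals of 4.95, 5.21, 4.84 and 10.43. BCL2L2 had the smallest difference, 0.22.

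p21 also lowers transcription of mitotic genes through the DREAM repressor complex, and this list moved the other way. Of 10 DREAM targets, 8 were higher and 0 lower at 48 h, against 21.2% and 19.8% of all named genes, and all 10 had positive differences, with a median of 1.58. MYBL2 differed by 2.76, BIRC5 (survivin) by 2.21 and CCNA2 (cyclin A2) by 2.19, while CCNB1 (cyclin B1) had the smallest difference, 0.41. At 24 h none was past 2-fold and the median was 0.13. CDKN1A, which acts on this list, was lower at 48 h as given above, and whether the shifts are linked was not tested.

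As a description of likeness, the centred log2 signals over the 4 arrays were compared by Euclidean distance among 14041 genes well above background on every array. The genes nearest to FAS were TNFRSF6B (distance 0.042), SH3BGRL3 (0.061) and ITGA5 (0.075), with differences at 48 h of −3.88, −3.96 and −3.89. Those nearest to CDKN1A were ZNF600 (0.040), MAFF (0.045) and MST1R (0.046), with −2.91, −3.02 and −3.02. With 4 arrays, of which 1 stands apart, such nearness rests almost wholly on that array.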

How the data were processed

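The authors amplified total RNA of each culture, labelled it with Cy3 and hybridized it to single-colour Agilent arrays. The deposited intensity values are linear spot signals with the background subtracted by Feature Extraction and not normalized between arrays. The file headers name version 10.7.1.1, and the submitters' processing notes name version 9.5. Per the authors' methods, signals were then quantile-normalized over all chips, and this was repeated here. Control spots and outlier-marked spots were dropped, spots of a probe were averaged as log2 signals, and the averages were quantile-normalized over 4 arrays with a floor at a signal of 1. Where a probe was dim on one array of a comparison, the higher of its own signal and the lowest signal well above background there was used and the difference is a bound, and a probe dim on both arrays gave no value.

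Symbols came from RefSeq transcripts (GRCh38.p14), which named 28168 probes. The array grid was built on an older release, so no probe positions are given. Between 62.5% and 65.7% of spots were well above background, and no spot was saturated.

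Some genes of the pathway are not reported here. The 9 genes and all lists were chosen with earlier results of these data known. Beyond the 9 genes, those named have at least a 4-fold difference at 48 h or 24 h, or the smallest difference of their list, and TP63 and MDM4 were added. FASLG, SESN3, CFLAR, FDXR, RPS27L and POLH were named after their values were seen. Values were computed with pandas 2.3.3, numpy 2.4.6 and scipy 1.17.1 under Python 3.11.15, plotted with matplotlib 3.10.9, and corrected by normexp on the median spot and background signals with R 4.3.3 and limma 3.58.1. The steps were tested on simulated arrays in which few probes, all bright, were changed. That test does not cover an array that differs as widely as the nonspecific stapled-peptide one at 48 h. The alternatives comprised no normalization, scaling to the 75th percentile, normexp with an offset of 50, measured values in place of bounds, leaving out probes dim on either array, keeping outlier-marked spots, the mean over a gene's probes, the combined table of the series, other fold limits and, added after seeing the data, quantile normalization over 3 arrays.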

Additional observations from a re-analysis of the deposited data

How the results depend on the processing

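With 1 array per condition nothing could be left out within a group, and a difference counts as moved when it shifts by more than 0.34 on the log2 scale, the SD of the 24 h peptide difference over all named genes. No paired analysis was possible because each group has 1 array, so the groups share a single replicate number. The median difference of the 9 genes stayed within that limit under every alternative, in all 4 comparisons, and so did 298 of 306 differences of single genes. None of the 306 reversed a difference past 2-fold. The 8 others were MDM2, at −0.69 as the mean over its probes at 48 h in both comparisons that use the nonspecific stapled-peptide array, and CDKN1A, FAS and ZMAT3 under normexp with an offset of 50, at −2.19, −3.11 and −1.96 between the peptides, with CDKN1A at −2.20, FAS at −3.27 and ZMAT3 at −2.003 over time. With a 10-fold limit 1 gene, FAS, was left at 48 h in each of these comparisons, and with a 100-fold limit 0 genes. Without normalization BAX lost its call at 48 h, which left 4 of 9 genes lower, the median of all named genes rose from 0.03 to 0.26, and 62.6% of all calls were higher instead of 51.7%. Scaling to the 75th percentile put that median at −0.06 between the peptides and at −0.12 with nonspecific stapled-peptide over time. Quantile normalization over 3 arrays gave no call among the 9 genes in either comparison that leaves out the array standing apart. All probes of the 9 genes were well above background, but the background correction still moved CDKN1A, FAS and ZMAT3, as given above. The lack of replicate arrays limits every difference.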

Other observations

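Kin and signalling partners of the 9 genes were also listed, 14 in all, of which 12 had a measured difference at 48 h. Of these, 4 were higher and 2 lower, with a median of 0.11, and none was past 2-fold at 24 h. These are 33.3% and 16.7% of the list, against 21.2% and 19.8% of all named genes. MDM4, whose probes differed as given above, is among the 4 and is also counted in the list of p53 kin and regulators. CCND1, the cyclin D1 that p21 binds, had log2 signals of 10.32 and 10.38 at 24 h and of 10.25 and 6.09 at 48 h, a difference of −4.15. The FAS ligand gene FASLG was not well above background on any array, so receptor and ligand could not be compared. CDKN1B, the p27 kin of p21, had the smallest difference, 0.02, whose sign turned after scaling to the 75th percentile. SESN3, the remaining sestrin, was measured by 1 probe, with log2 signals of 5.66 and 4.93 at 24 h and of 5.45 and 5.35 at 48 h. It differed by −0.09 at 48 h and by −0.73 at 24 h. Its 24 h signals were not far above the lowest ones well above background on those arrays, 3.94 and 3.78.

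FASLG, SESN3 and CFLAR are named outside the rule for named genes, after their values were seen, as are FDXR, RPS27L and POLH above. CFLAR, the inhibitor of FAS signalling, had probes that went in opposite directions. Its brightest probe differed by 0.80 at 48 h, and by −1.08 under normexp, which changes the probe that is brightest, and the others by −1.41, −2.29 and −2.31. Which transcripts these probes detect was not examined.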
